A study of Mus musculus with 18 samples.

Results

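RAW264.7 cells that carry an inducible CITED1 construct were compared with the RAW264.7 cells they were made from, with neither line given the inducer. The members are the genes with a row for this pair of groups, in either order, in the authors' deposited table of Cuffdiff comparisons, which lists changes of at least 2-fold with a q-value (a p-value adjusted for multiple tests) below 0.05. There were 245 such genes, from 269 transcript or locus entries, out of 5455 named genes with a row in any comparison between the 6 groups of the series. RAW264.7 is a mouse macrophage-like cell line. The parental group, named RAW cells no doxycyline in the labels, had 3 samples of untransduced cells without doxycycline or interferon-gamma. The construct group, p2080 no doxycyline, had 3 samples of cells transduced with pINDUCER20-mCITED1, a lentiviral vector from which doxycycline turns on full-length mouse CITED1, also without doxycycline or interferon-gamma. The labels do not say whether the transduced cells are a pool or a clone, or how they were selected. They also do not give the source of the replicates, which may be technical. As no group carries an empty vector, transduction, selection, time in culture and leak of the construct cannot be told apart. The other 4 groups, also of 3 samples, were parental cells with doxycycline at 100 ng/mL and construct cells with doxycycline, with interferon-gamma at 200 U/mL or with both.

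The deposited table holds 1 value per pair of groups and none per sample. Levels are FPKM (fragments per transcript length and library size) of a group, rebuilt from the deposited fold and the deposited total FPKM, which was read as the sum of both groups, so they carry no SD, the depth behind them is unknown, and every call is the authors'. A missing row means only that the authors made no call for that pair, and not that the levels were alike. Cited1 had 168 rebuilt FPKM in induced construct cells and still 0 rows with a parental group. Whether genes silent in one line are missing from the members in the same way could not be checked.

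CITED1 is a transcriptional co-regulator that binds other factors and the acetyltransferases CBP and p300 rather than DNA. RAW264.7 cells are used as a model of macrophages and, since RANK ligand turns them into multinucleated bone-resorbing cells, of osteoclast formation. Cited1 itself stood at 0.703 rebuilt FPKM in uninduced construct cells and had 0 rows with a parental group, so no ratio to the parental cells is given. Beside it, induced construct cells reached 168 rebuilt FPKM.

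The sequences upstream of 7 members are shown as examples of the members that the results turn on. Tmem176a and Tmem176b are neighbours that were lower together, Nxf7 and Rhox5 are X-linked genes that differed in opposite directions, Angptl2 and Cd81 were higher, and Acp5 is an osteoclast gene that was higher. Each is the 250 bases before the start of the gene from RefSeq (build GRCm38.p6), written 5′ to 3′ on the gene's strand, with CpG dinucleotides, the sites of DNA methylation, in capitals. The windows are chr6:48841233-48841482 on the plus strand for Tmem176a, chr6:48841138-48841387 on the minus strand for Tmem176b, chrX:135598782-135599031 on the minus strand for Nxf7, chrX:37754358-37754607 on the plus strand for Rhox5, chr2:33215711-33215960 on the plus strand for Angptl2, chr7:143052500-143052749 on the plus strand for Cd81 and chr9:22135747-22135996 on the minus strand for Acp5.
Tmem176a: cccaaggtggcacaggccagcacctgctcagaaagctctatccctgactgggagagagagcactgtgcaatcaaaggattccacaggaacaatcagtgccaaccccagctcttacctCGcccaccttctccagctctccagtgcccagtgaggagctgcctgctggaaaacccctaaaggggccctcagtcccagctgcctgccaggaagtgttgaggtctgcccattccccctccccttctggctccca
Tmem176b: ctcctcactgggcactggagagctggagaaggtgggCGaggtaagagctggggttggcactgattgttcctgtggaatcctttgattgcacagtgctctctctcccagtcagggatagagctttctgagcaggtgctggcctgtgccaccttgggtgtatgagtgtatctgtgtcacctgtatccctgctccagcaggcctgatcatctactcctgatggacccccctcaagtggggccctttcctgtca
Nxf7: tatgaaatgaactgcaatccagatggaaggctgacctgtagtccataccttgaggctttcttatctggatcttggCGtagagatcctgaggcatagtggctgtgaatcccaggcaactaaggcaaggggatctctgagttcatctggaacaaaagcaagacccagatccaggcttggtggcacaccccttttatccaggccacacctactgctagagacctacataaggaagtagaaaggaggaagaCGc
Rhox5: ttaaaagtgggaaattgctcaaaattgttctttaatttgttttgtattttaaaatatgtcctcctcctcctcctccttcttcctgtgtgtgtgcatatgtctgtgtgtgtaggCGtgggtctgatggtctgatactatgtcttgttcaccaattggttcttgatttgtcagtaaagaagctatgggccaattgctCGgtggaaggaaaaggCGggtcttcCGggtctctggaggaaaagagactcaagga
Angptl2: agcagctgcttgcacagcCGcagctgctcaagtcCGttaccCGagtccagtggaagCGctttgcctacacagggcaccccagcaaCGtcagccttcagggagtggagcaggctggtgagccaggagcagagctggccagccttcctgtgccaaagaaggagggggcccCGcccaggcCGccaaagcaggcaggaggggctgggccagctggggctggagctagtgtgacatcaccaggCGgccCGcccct
Cd81: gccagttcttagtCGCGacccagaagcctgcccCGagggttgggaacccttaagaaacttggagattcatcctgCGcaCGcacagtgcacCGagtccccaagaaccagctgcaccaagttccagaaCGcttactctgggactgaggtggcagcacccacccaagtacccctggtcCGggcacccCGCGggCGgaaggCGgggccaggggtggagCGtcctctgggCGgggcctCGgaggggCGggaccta
Acp5: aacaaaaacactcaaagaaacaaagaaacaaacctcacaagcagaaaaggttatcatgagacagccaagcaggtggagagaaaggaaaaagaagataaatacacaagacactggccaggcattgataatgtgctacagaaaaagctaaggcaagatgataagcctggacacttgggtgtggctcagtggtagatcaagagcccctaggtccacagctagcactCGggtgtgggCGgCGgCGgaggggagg
The Tmem176a and Tmem176b windows face each other and share 155 bases, and each holds 1 CpG. The Nxf7 window holds 2 CpGs, Rhox5 and Acp5 hold 4 each, Angptl2 holds 9 and Cd81 holds 16. Over the 300 bases from 250 before to 50 after the start, 91 lower coding genes matched in the RefSeq table had a median of 11 CpGs and 63 higher ones a median of 15, beside 21 for the 3947 matched coding genes with a row in the series and 14 for all 16522 coding genes of the RefSeq table. Windows with at most 5 CpGs made up 31.9% of the lower, 23.8% of the higher, 11.4% of the listed and 31.1% of all coding genes. Both medians lay below that of the listed genes, with the higher genes near the median of the whole RefSeq table and the lower genes under it. These are counts of letters, and methylation was not measured.

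Of the 245 genes, 94 were higher in construct cells, which is 1.72% of the listed genes, and 151 were lower, which is 2.77%. The median deposited fold was 2.51 for the higher and 2.92 for the lower genes in the authors' deposited table. Large changes lay mostly on the lower side: 43 genes were at least 4-fold lower and 20 at least 4-fold higher, and 15 and 4 were at least 10-fold apart. The lower genes were also the more abundant, with 38 of 151 reaching 10 FPKM in parental cells against 13 of 94 higher genes reaching it in construct cells. The 38 include pseudogenes such as Rpl19-ps11 and Rps6-ps4, whose levels in untreated parental cells are described below. At the other end, 47 of the lower genes had a rebuilt level under 0.5 FPKM in construct cells and 42 of the higher genes had one under 0.5 FPKM in parental cells. Most entries with rebuilt levels were close in both lines: over 4664 entries with a rebuilt level in both groups, 81.9% lay within 0.5 log2 units of equality and the median log2 ratio was -0.03. Without a row for the pair, 82 entries had rebuilt levels at least 2-fold apart, at a median of 0.633 FPKM in the higher group.

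**Figure D1:**
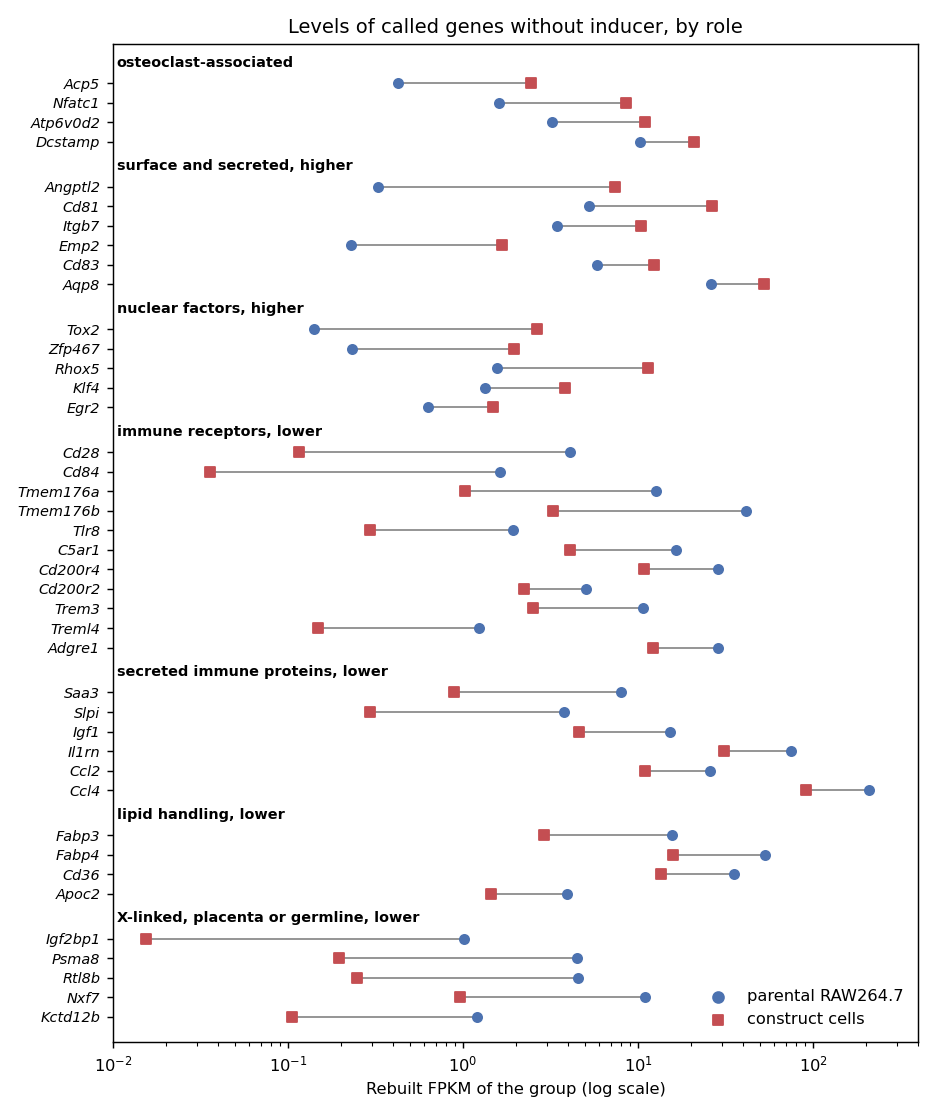
Rebuilt FPKM (log scale) of called genes in parental cells (circles) and construct cells (squares), both without inducer, grouped by role; each point is 1 group value with no error available. Osteoclast-associated genes lie to the right in construct cells, from Acp5 (0.428 to 2.43) to Dcstamp (10.3 to 20.7), and Igf2bp1 shows the widest gap (1.01 to 0.0154).

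One class of genes sets the untreated parental group apart and bears on the count of lower genes. Pseudogenes, mostly processed copies of housekeeping genes, made up 28 of the 163 lower entries (17.2%) and 2 of the 106 higher entries (1.89%), beside 3.16% of all entries in the series. The ribosomal protein pseudogene Rpl19-ps11 stood at 75.4 rebuilt FPKM in untreated parental cells, 19.7 in parental cells with doxycycline, 16.1 in construct cells and 19.3 in construct cells with doxycycline. In the same 4 groups Rps6-ps4 stood at 46.9, 14.2, 14.8 and 13.9 rebuilt FPKM. The retrogene Rps27rt, also from a ribosomal protein gene, stood at 62.4 rebuilt FPKM in untreated parental cells, 25.8 in parental cells with doxycycline and 28.4 in construct cells. For these 3 genes the untreated parental group alone was high, and the other parental group lay beside the construct cells. Of 18 lower pseudogenes with a level in parental cells with doxycycline, 17 lay below the untreated parental level, 13 of them by at least 2-fold, at a median log2 ratio of -1.16. The other 113 lower genes with that level had a median of -0.03, and 78 higher genes one of 0.05. All lower genes were picked for a higher level in untreated parental cells. A level with doxycycline exists only where a comparison with that parental group was called, and pseudogenes without one are not counted. The counts and median of the 18 pseudogenes are therefore partly set by these choices. Reads of a processed pseudogene and its parent gene can be assigned to either, so these levels are uncertain. Without pseudogenes 92 genes were higher and 123 lower.

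**Figure D2:**
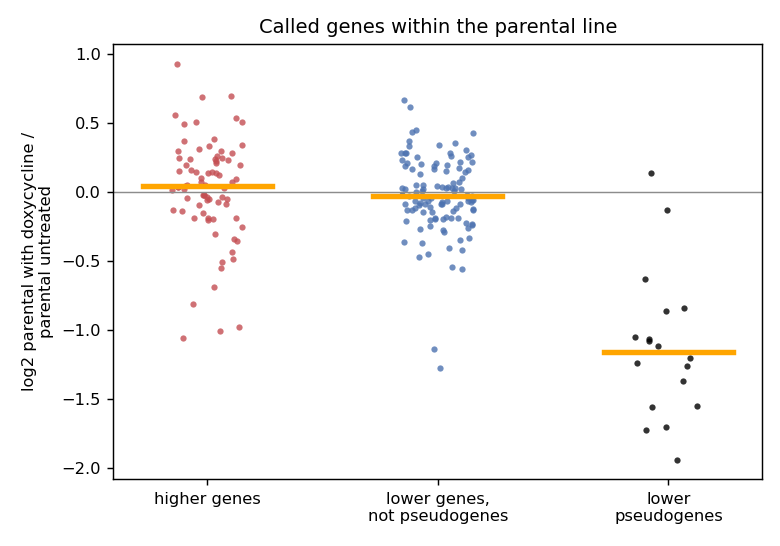
Log2 ratio of the rebuilt FPKM of parental cells with doxycycline to that of untreated parental cells, for called genes; points are genes, scattered sideways for legibility, and bars are medians. The 18 lower pseudogenes have a median of -1.16, while the other lower genes (-0.03) and the higher genes (0.05) have medians near 0. Only genes with a called comparison of the parental doxycycline group have a level.

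The cell identity of the lines was checked on marker genes. Of 18 macrophage markers 8 had a row anywhere in the series and 5 had levels in both groups. Spi1, which encodes the myeloid transcription factor PU.1, stood at 157 rebuilt FPKM in parental and 153 in construct cells, and the Fc receptor gene Fcgr3 at 42.4 and 39.9. Adgre1, which encodes the F4/80 antigen of mouse macrophages, was the one macrophage marker called, at 28.6 in parental and 12.2 in construct cells. All 5 ratios lay below 0, with a median log2 of -0.34 beside -0.03 over 3745 genes with both levels. When both lines had doxycycline all 5 again lay below 0, but at a median of -0.10, beside -0.04 over 3323 genes. Of the lists for other cell types some markers were well above 0 in both lines: Bst2 from the dendritic cell list stood at 219 and 167 rebuilt FPKM, Blnk from the B-cell list at 21.8 and 16.9, Flt1 from the endothelial list at 11.5 and 13.9 and Csf3r from the neutrophil list at 2.87 and 3.75. None of these lists had a called gene, where 1.72% of all listed genes were called higher and 2.77% lower. Their part in the results was not tested. Among the 18 T-cell markers only Lck had levels in both groups (0.955 and 0.696), none of 10 epithelial markers had a row, and 1 of 11 fibroblast markers did, Acta2, at 0.193 and 0.102. The table lists no gene that was never called, so a marker's absence from it does not mean a level of 0.

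Genes of osteoclast differentiation were among the higher genes. Of the 29 genes of the osteoclast list 16 had a row in the series, 4 were called higher and 0 lower. Over all listed genes 1.72% were called higher and 2.77% lower. Acp5, the tartrate-resistant acid phosphatase used as an osteoclast stain, stood at 0.428 rebuilt FPKM in parental and 2.43 in construct cells. Nfatc1, the transcription factor at the head of osteoclast differentiation, stood at 1.60 and 8.49. Atp6v0d2, a subunit of the proton pump that is needed for fusion of osteoclast precursors, stood at 3.22 and 10.9, and Dcstamp, a membrane protein required for that fusion, at 10.3 and 20.7. Over the 13 genes of the list with both levels, called ones included, the median log2 ratio was 0.19, with 9 above 0 and 4 below. Among all genes with both levels 56.4% lay below 0, at a median of -0.03. Ctsk, the collagen-degrading protease of osteoclasts, had no row for the pair, with 3.43 and 3.19 rebuilt FPKM, and the fusion gene Ocstamp had none at 0.142 and 0.382. Ctsk and Ocstamp were chosen after their values were seen. On the list of 11 genes known to restrain osteoclast formation, 7 had a row in the series and 2 were called, both lower, beside the 2.77% of all listed genes. These were the helix-loop-helix inhibitor genes Id1 (6.33 to 2.98 rebuilt FPKM) and Id2 (8.98 to 4.38), though both ratios turn if log2 ratios are centred on the called entries. Of the 5 genes of this list with both levels, called ones included, 2 lay above 0 and 3 below, at a median log2 of -0.28. The 4 higher osteoclast genes were also higher in construct cells when both lines had doxycycline, at 4.26 against 0.473 rebuilt FPKM for Acp5, 6.51 against 1.46 for Nfatc1 and 14.0 against 2.83 for Atp6v0d2. For Dcstamp that pair gave 19.3 against 11.3 for the same entry, under 2-fold, and the call came from another entry of the gene.

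Other higher genes encode surface, secreted and nuclear proteins. Angptl2, a secreted angiopoietin-like protein, had the largest fold on this side, 22.4 in the authors' deposited table, from 0.328 to 7.35 rebuilt FPKM. The tetraspanin gene Cd81 went from 5.22 to 26.5 and the integrin chain gene Itgb7 from 3.46 to 10.4 rebuilt FPKM. With Emp2, a tetraspan membrane protein, at 0.229 and 1.66, they were the 3 called genes, all higher, of 43 on the integrin and adhesion list, of which 16 had a row in the series. The shares over all listed genes were 1.72% called higher and 2.77% lower. The integrin and adhesion list's median log2 ratio was 0.05, with 6 genes above 0 and 5 below. Aqp8, a water channel, was the most abundant higher gene at 26.1 and 52.4 rebuilt FPKM. The epoxide hydrolase gene Ephx1 stood at 8.50 and 21.2 and the surface glycoprotein gene Cd83 at 5.80 and 12.4. The chemokine gene Cxcl16 was called on a minor transcript (3.39 and 9.77 rebuilt FPKM), while its most abundant entry, at 20.5 in parental cells, had no row and a log2 ratio of 0.16. In all, 8 members were counted as having a more abundant entry that was not called, and in 8 of the 8 that entry's ratio had the direction of the call. For Evl the uncalled entry (3.87 and 0.988 rebuilt FPKM) was not above the called one (4.21 and 0.924) in this pair. For Bclaf1 the uncalled entry was near equality, at a log2 ratio of 0.027. With doxycycline it stood at 15.5 in parental and 14.6 in construct cells, the other direction. Pdcd1, the inhibitory receptor PD-1 of lymphocytes and activated myeloid cells, was 8.64-fold higher in the authors' deposited table but low in both lines, at 0.0809 and 0.699 rebuilt FPKM. The receptor tyrosine kinase gene Axl, which serves the uptake of dying cells, was similarly low at 0.159 and 0.591.

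Among nuclear factors, Tox2, an HMG-box protein, stood at 0.140 rebuilt FPKM in parental and 2.63 in construct cells. The zinc finger gene Zfp467 stood at 0.232 and 1.95 and the homeobox gene Rhox5 at 1.57 and 11.3. Klf4 and Egr2, transcription factors of monocyte and macrophage differentiation, stood at 1.33 and 3.80 and at 0.629 and 1.49. Zfp467 was the only one called of 109 genes with Zfp symbols and a row in the series, where 1.72% of all listed genes were called higher and 2.77% lower. Of the 57 with both levels 44 had a ratio above 0, at a median log2 of 0.17. Among all 3745 genes with both levels 1625 lay above 0, at a median of -0.03. With doxycycline in both lines the median of the Zfp genes was 0.10, with 33 of 48 above 0. Rgs16, which shortens G-protein signals, stood at 0.119 and 0.801 rebuilt FPKM, the protein kinase C gene Prkca at 0.423 and 1.52, and the adaptor gene Shc1 at 6.70 and 13.5. Frat1 and Frat2, neighbouring genes for Wnt pathway proteins that bind GSK-3, stood at 0.257 and 0.723 and at 0.131 and 0.949. Peg12, an imprinted gene of the same family, was called lower, at 1.10 and 0.263 rebuilt FPKM (chosen after its values were seen). Of 12 Ras-MAPK feedback genes with a row in the series 1 was called higher and 0 lower, beside the same 1.72% and 2.77%. Their median log2 was 0.00 over 11 genes.

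Receptor genes of innate and adaptive immunity were among the lower genes. Tmem176b and Tmem176a, whose upstream windows are shown above, encode related membrane proteins of myeloid and dendritic cells and stood at 41.6 and 3.28 and at 12.6 and 1.02 rebuilt FPKM. With Ms4a7 (1.13 to 0.180) they were the 3 called of 13 genes on the MS4A and TMEM176 list, of which 7 had a row in the series. All 7 had both levels and lay below 0, at a median log2 ratio of -0.82. The share of all listed genes called lower was 2.77%, and 56.4% of all genes with both levels lay below 0. Cd28, the costimulatory receptor known from T cells, went from 4.06 to 0.115 rebuilt FPKM and Cd84, an adhesion receptor of the SLAM family, from 1.63 to 0.0357. The complement C5a receptor gene C5ar1 stood at 16.6 and 4.06, the RNA-sensing receptor gene Tlr8 at 1.94 and 0.292 and the inflammasome sensor gene Nlrc4 at 1.58 and 0.403. Tlr8 and Nlrc4 were the 2 called genes of the 33 on the pattern recognition list, of which 24 had a row in the series. Of all listed genes 2.77% were called lower. On that list 16 of 20 genes with both levels lay below 0, at a median log2 of -0.21, where 56.4% of all genes with both levels did. The paired receptor genes Cd200r4 and Cd200r2 stood at 28.6 and 10.8 and at 5.07 and 2.22. Of the TREM cluster of myeloid receptor genes, 3 were called: Trem3 stood at 10.6 and 2.52, Treml4 at 1.23 and 0.149 and Trem1 at 0.536 and 0.214 rebuilt FPKM. Trem2, the abundant member of that cluster and one of the osteoclast list, had no row for the pair, at 187 and 189.7 (chosen after its values were seen). Cd24a, a small glycoprotein, stood at 5.43 and 0.791. The Cd200r genes are similar in sequence, and reads could be split among them.

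Of the 49 genes of the cytokine and chemokine list 29 had a row in the series, 1 was called higher and 4 lower. Over all listed genes 1.72% were called higher and 2.77% lower. Ccl4, a chemokine that attracts lymphocytes and monocytes, was the most abundant lower gene, at 208 rebuilt FPKM in parental and 90.6 in construct cells. Il1rn, the natural antagonist of the interleukin-1 receptor, stood at 74.8 and 30.9, the monocyte chemokine gene Ccl2 at 25.7 and 11.0 and the growth factor gene Igf1 at 15.3 and 4.57, its more abundant entry being at 31.0 and 14.0. The called higher gene was Cxcl16. Over the 18 genes of the list with both levels the median log2 ratio was -0.22, with 7 above 0 and 11 below. Among all genes with both levels 56.4% lay below 0, at a median of -0.03. Of secreted proteins outside the list, Saa3, an acute-phase protein, stood at 8.04 and 0.884 rebuilt FPKM, and Slpi, an inhibitor of leukocyte proteases, at 3.78 and 0.295. Among abundant intracellular proteins, Tmsb10, which binds actin monomers and has near-identical copies in the genome, stood at 146 and 37.3, and the stress-responsive kinase gene Plk2 at 50.5 and 18.4.

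On the lipid and sterol list 27 of 48 genes had a row in the series and 5 were called, all lower. Of all listed genes 2.77% were called lower. On this list 17 of 21 genes with both levels lay below 0, at a median log2 of -0.22, where 56.4% of all genes with both levels did. Fabp4, a fatty acid carrier of adipocytes and macrophages, stood at 53.4 and 15.8 rebuilt FPKM and its relative Fabp3 at 15.7 and 2.90. The scavenger receptor and fatty acid transporter gene Cd36 stood at 35.4 and 13.6, the apolipoprotein gene Apoc2 at 3.91 and 1.44 and the prostaglandin synthase gene Ptgs2, whose ratio turns under the centring on called entries, at 2.95 and 1.36. Outside the list, the apolipoprotein L gene Apol9a, which has near-identical copies, was higher at 1.18 and 4.76. Among other enzymes, Ass1, which makes argininosuccinate for arginine synthesis, went from 9.72 to 1.25, the lysosomal protease gene Ctsc from 67.2 to 33.4, and Cth, which makes cysteine, from 4.27 to 2.03.

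Several of the largest falls were in genes best known from germ line, placenta or embryo. Igf2bp1, an oncofetal RNA-binding protein, was 65.7-fold lower in the authors' deposited table, from 1.01 to 0.0154 rebuilt FPKM. Psma8, a proteasome subunit of the testis, went from 4.46 to 0.196 and Rtl8b, an X-linked gene derived from a retrotransposon, from 4.55 to 0.249. With Rhox5, which was higher, these were the 4 called genes of 65 on the imprinted, placenta and germline list, of which 8 had a row in the series. The shares over all listed genes were 1.72% higher and 2.77% lower. Rtl8b has near-identical neighbours, so its reads may be split. On the X chromosome 3 members were higher and 10 lower, 4 of them pseudogenes (1 higher and 3 lower). The lower X-linked coding genes included the RNA export factor gene Nxf7 (11.0 to 0.960 rebuilt FPKM), Kctd12b (1.20 to 0.106), Tlr8 and Rtl8b. X-linked genes made up 5.88% of lower and 2.41% of higher coding genes, beside 3.00% of listed coding genes. Adjacent coding genes shared a direction in 7 of 7 pairs, which were Frat1 with Frat2 on the higher side and Cd200r4 with Cd200r2, Trem1 with Trem3, Trem3 with Treml4, Acap3 with Ube2j2, Tmem176b with Tmem176a and Car12 with Aph1b on the lower side. Of the 23 genes on the DNA methylation and Polycomb list 13 had a row in the series and none was called by Cuffdiff. Of all listed genes 1.72% were called higher and 2.77% lower, so 0 calls among 13 genes is near that share. Of the 11 with both levels 10 lay above 0, at a median log2 of 0.15.

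Some lists had few or no calls and leaned to one side, where 1.72% of all listed genes were called higher and 2.77% lower. Of 43 cell cycle genes 35 had a row in the series and none was called by Cuffdiff, which is near those shares. Of the 31 with both levels 22 lay below 0, at a median log2 of -0.09. Of 65 interferon-stimulated and antiviral genes 54 had a row in the series and 3 were called, all lower. These were Ifit3 (3.99 to 1.81 rebuilt FPKM), an inhibitor of viral RNA translation, the RNA sensor cofactor gene Ddx60 (0.700 to 0.330) and Phf11a (1.36 to 0.453). Of these, Ifit3 and Ddx60 turn if log2 ratios are centred on the called entries. In that list 43 of 48 genes with both levels lay below 0, at a median log2 of -0.35, where 56.4% of all genes with both levels lay below 0 at a median of -0.03. When both lines had doxycycline, 26 of 46 lay below 0 at a median of -0.05 and none was called. The list's level in parental cells with doxycycline lay below that in untreated parental cells at a median log2 of -0.19, and in construct cells doxycycline went with a median of 0.13. For comparison, the median over all genes was 0.00 within each line to 2 decimals. Whether the change between these pairs exceeds the spread of samples was not tested.

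**Figure D3:**
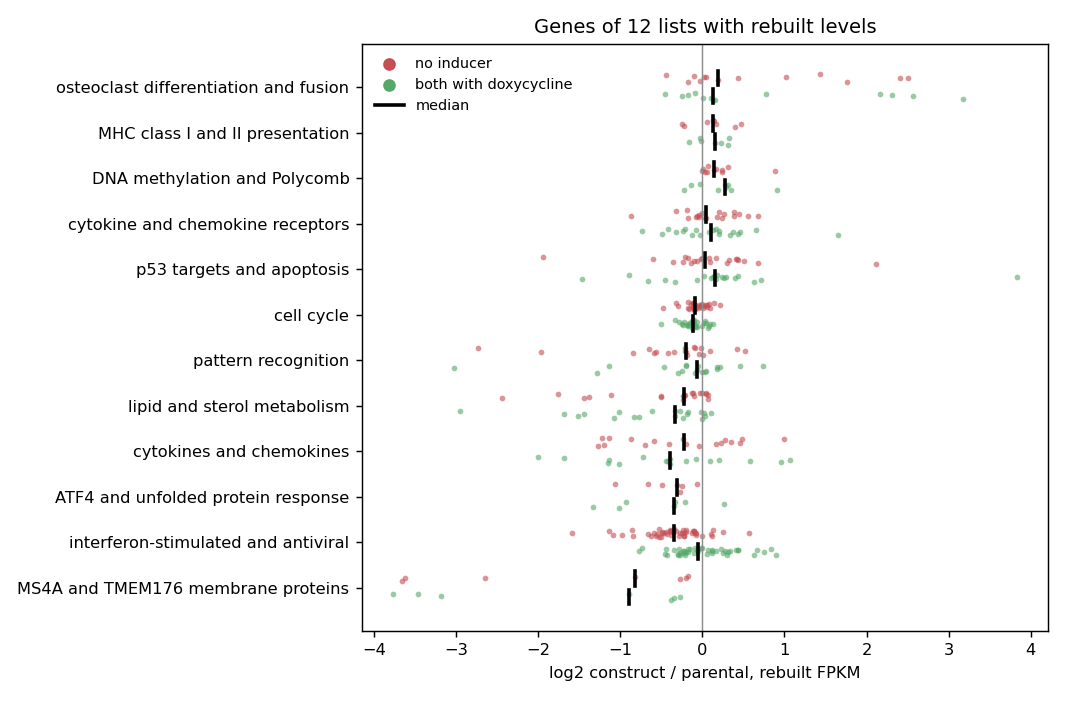
Log2 ratio of construct to parental rebuilt FPKM for the genes of 12 lists with levels in both groups, without inducer (upper points of each row) and with doxycycline in both lines (lower points); black bars are medians. The interferon-stimulated list has a median of -0.35 without inducer and -0.05 with doxycycline, while the MS4A and TMEM176 list is low in both (-0.82 and -0.89).

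The same contrast was measured again in samples that the uninduced pair does not share, parental and construct cells that both had doxycycline. That pair had 133 genes higher (2.44% of listed genes) and 173 lower (3.17%). Of the 94 higher genes 61 were also higher there (64.9% of the uninduced and 45.9% of the doxycycline list), and of the 151 lower genes 99 were also lower (65.6% and 57.2%). None was called in the opposite direction by Cuffdiff. Without pseudogenes the shares of the uninduced lists were 66.3% and 79.7%. Among genes at least 4-fold apart, 18 of 20 higher and 38 of 43 lower ones were called again. In the doxycycline pair CITED1 was induced in the construct cells, so the pairs differ in that respect too. Of the 33 higher genes with no row there, 12 had both levels and all 12 lay above 0, at a median log2 of 0.84. Of the 52 lower genes with no row, 27 were pseudogenes; the 15 of these with both levels had a median log2 of -0.24, and the 12 others with both levels one of -0.70. Eps8, which caps actin filaments, stood at 1.19 and 3.07 rebuilt FPKM without inducer and at 1.27 and 1.33 with doxycycline.

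**Figure D4:**
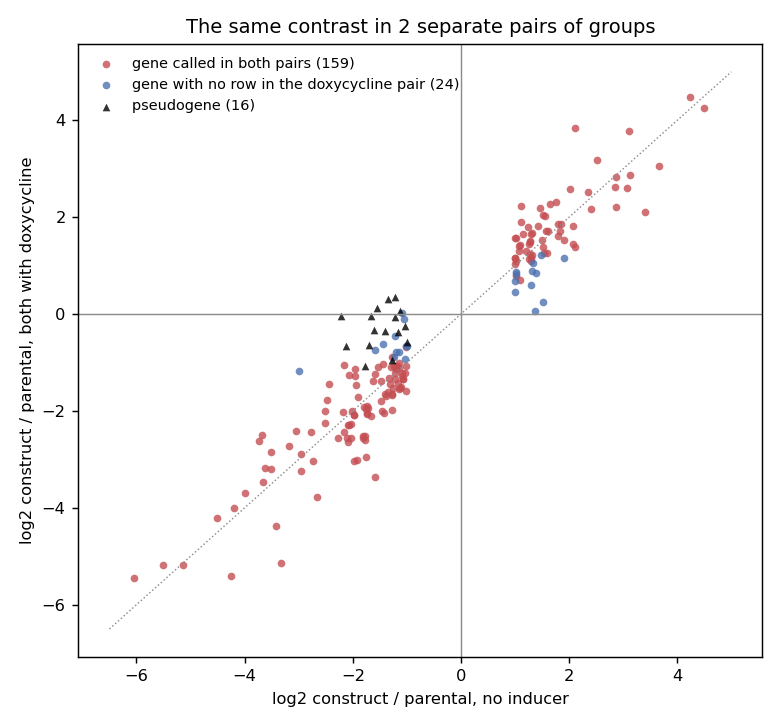
Log2 ratio of construct to parental rebuilt FPKM without inducer (x axis) and with doxycycline in both lines (y axis) for the 199 members with levels in all 4 groups; the dotted line marks equal ratios. Of these, 194 have the same sign in both pairs, and the pseudogenes (triangles) lie closer to 0 on the y axis than on the x axis. All members were picked by their ratio on the x axis. The 199 include 59 higher and 97 lower members called by the same entry in both pairs, whose shared sign follows from those calls.

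Over the 199 members with levels in all 4 groups, the median absolute log2 ratio between the lines was 1.56 without inducer and 1.54 with doxycycline. Doxycycline within a line went with a median of 0.19 in parental and 0.30 in construct cells for the same members. As members were picked for a difference of at least 2-fold without inducer, these medians cannot be weighed against each other. Over 3742 entries with all 4 levels and at least 1 FPKM in one group, the medians between the lines were 0.16 without inducer and 0.19 with doxycycline. Within the lines they were 0.09 in parental and 0.11 in construct cells. Fabp4 was a member that moved within the construct line, from 15.8 to 6.90 rebuilt FPKM with doxycycline, while the parental groups stood at 53.4 and 53.7.

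The members also differed in how construct cells with interferon-gamma stood. These cells share no samples with the uninduced pair, and no parental cells with interferon-gamma are among the groups, so the values are given side by side. For some higher genes the level with interferon-gamma lay nearer to the parental cells: Cd81 stood at 5.22 rebuilt FPKM in parental, 26.5 in construct and 7.92 in interferon-treated construct cells, and Atp6v0d2 at 3.22, 10.9 and 4.66. Rhox5 stood at 8.96 with interferon-gamma, between its level of 11.3 in construct and 1.57 in parental cells. Angptl2 was higher again at 33.0. Among the lower genes, Tmsb10 reached 696 rebuilt FPKM, Plk2 90.9, Il1rn 205 and Ass1 207, all above their parental levels. C5ar1 (1.91), Tlr8 (0.0397), Saa3 (0.471) and Adgre1 (7.10) lay lower still than in uninduced construct cells.

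**Figure D5:**
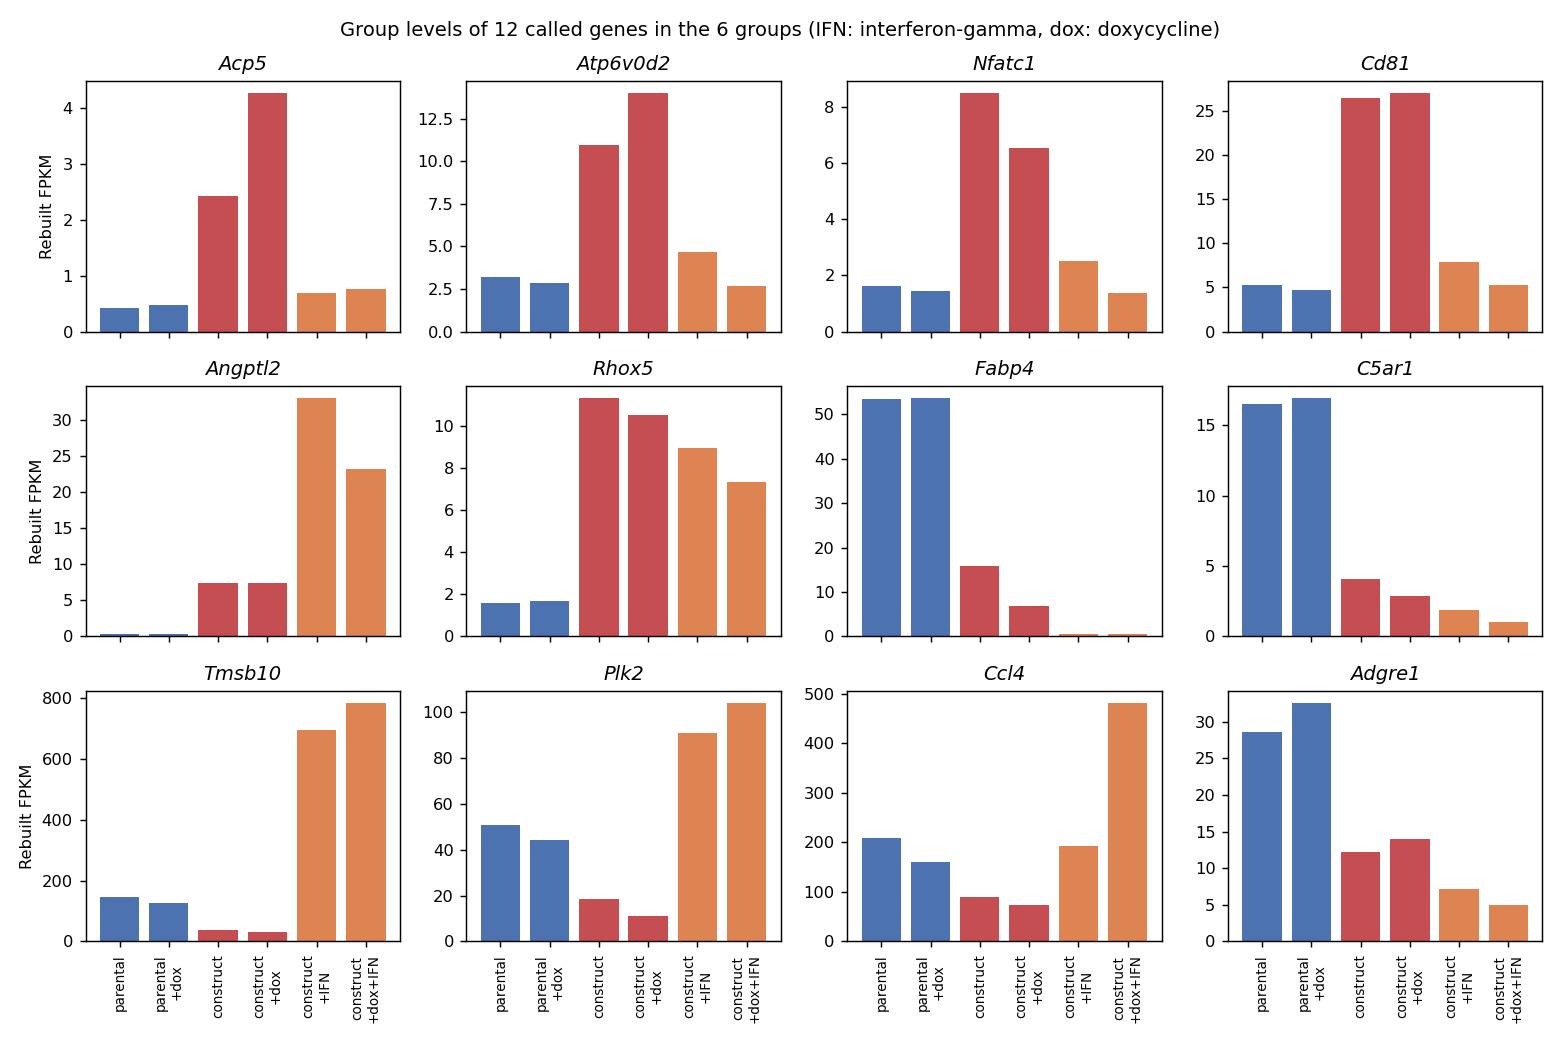
Rebuilt FPKM of 12 called genes in the 6 groups; bars are group values from the authors' deposited table and have no error. Rhox5 is high in all 4 construct groups (7.34 to 11.3), while Tmsb10 is low in untreated construct cells (37.3) and highest with both treatments (784).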

How the data were processed

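Poly(A)-selected, strand-specific RNA-seq libraries were made from 18 samples in 6 groups of 3, per the labels' protocols. Cuffdiff 2.2.1, edgeR, featureCounts, STAR 2.5.3a and FastQC 0.11.5 are listed in the submitters' processing notes, with no role for each. The authors' genome build is not given in the sources used here. Per row, the deposited table gives, per the file headers, a fold change as a linear ratio, its direction, a total FPKM and a q-value for each pair of groups, all made by the authors. Of its 112230 rows, 77406 name a group outside these 6 and were not used. Rows of the uninduced pair had a fold of at least 2, a q of at most 0.0490 and a summed FPKM of at least 0.660, and 58.0% of its 269 entries shared the smallest q of 0.000387.

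No header defines the deposited FPKM total. It was read as the sum of both groups, on which absolute levels rest and ratios within a pair do not. A pair's lower level is the total over (1 + fold) and its higher level is the fold times that. A group's level is the median over its comparisons; where several gave 1 FPKM or more (17762 levels), their spread had a median of 0.0652% and a maximum of 0.753%. Assembler locus names beside a symbol were dropped, and entries with no symbol or several were left out of gene counts. Each gene takes the value of its most abundant called entry, sometimes a minor transcript. List medians use the most abundant entry with both levels, called or not. Of 256 member entries with a transcript identifier, 254 were found in GENCODE M21, used for biotype, chromosome and gene order only. Promoter windows came from RefSeq for 154 coding members. The table does not hold how many genes were tested, so shares are of the 5455 listed genes.

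Tests on single samples had been planned, but the table holds no such values, so the calls are the authors' and no test was run. The members, the 40 gene lists and 13 symbol families were chosen with earlier results of these data known. Named are the called genes with the largest folds in each direction (25 each, at least 1 FPKM in one group), the 10 most abundant each way, and called list members; predicted genes were passed over. The sequences shown, the limit of 5 CpGs and the genes drawn in the figures were chosen after values were seen. Transcription factor motifs were also searched in the promoter windows and are not reported. The rebuilding of levels was tried on simulated data whose totals were made as sums of both groups. It checks the arithmetic and cannot test that reading of the deposited total. Python 3.11.15, pandas 2.3.3, numpy 2.4.6 and matplotlib 3.10.9 were used.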

Additional observations from a re-analysis of the deposited data

How the results depend on the processing

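The counts of 94 higher and 151 lower genes were tried under 9 other settings each, of which 3 results moved by more than 1.5 times: a 4-fold limit, counted on any entry of a gene, left 21 and 43, and centring the log2 ratios on the called entries (a shift of -1.16, set by the larger number of lower genes) left 33 lower. That centring moved the share of higher genes from 38.4% to 74.0%, while centring on all entries with both levels, chosen after seeing the data, moved it to 40.3% with 139 lower. The remaining settings gave 65 to 106 higher and 118 to 163 lower genes. Taking parental cells with doxycycline as the parental group, also chosen after seeing the data, gave 98 and 125. The counts of 61 and 99 genes called in both pairs ran from 49 to 64 and from 88 to 107.

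Of 729 values of named genes under these settings, 594 kept direction and call, 121 lost the call and 14 turned. After centring on called entries the log2 ratios that turned were Nckap1l 0.16, Ctsc 0.16, Car12 0.16, Id2 0.13, Cth 0.093, Id1 0.079, Ddx60 0.079, Ptgs2 0.052, Acap3 0.026, Ifit3 0.026, Rps27rt 0.026 and Epas1 0.019. Against parental cells with doxycycline Rps27rt was at 0.14 and Rps6-ps4 at 0.058.

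No paired analysis was possible because the table has no values per sample, and for the same reason no replicate was left out. Depth is unknown. There were 23 higher and 14 lower genes below 1 FPKM in both groups.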
